A study of Rattus norvegicus with 24 samples.

Results

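Genes that move, store and recycle iron were followed in the liver and spleen of rats given cyclophosphamide, a DNA-crosslinking cytostatic drug, or vehicle. The set held 10 genes by symbol: the transferrin receptor Tfrc, the iron exporter Slc40a1 (ferroportin), the metal transporters Slc11a1 and Slc11a2, the ferritin chains Fth1 and Ftl1, transferrin (Tf), haem oxygenase 1 (Hmox1), ceruloplasmin (Cp) and biliverdin reductase B (Blvrb). A gene was measured where an array probe set named it alone, and of several such probe sets the one with the highest mean over the 24 arrays was used. This left 6 of the 10 (Tfrc, Slc40a1, Slc11a2, Hmox1, Cp and Blvrb) among 14201 genes of the whole array. Slc11a1 had no probe set, and Fth1, Ftl1 and Tf were named only on probe sets shared with other genes, whose values are given apart. All 6 measured genes had a value on each of the 24 arrays, so no filter on low values removed any of them.

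The animals were 12 wild type male Sprague-Dawley rats aged 46 to 49 days. They were dosed by mouth for 5 days with vehicle or with 40 mg/kg/day of cyclophosphamide, and within each treatment 3 rats had wood sticks and 3 did not. The 4 groups were therefore vehicle without wood (rats 1001, 1003 and 1005), drug without wood (2001, 2003 and 2005), vehicle with wood (3001, 3003 and 3005) and drug with wood (4001, 4003 and 4005). Total RNA of each whole organ went to 1 Affymetrix array, and a p-value here measures the spread between these rats.

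Iron enters most cells bound to transferrin, which the transferrin receptor carries inside, and Slc11a2 then moves the iron across the endosome membrane. In the spleen, macrophages of the red pulp take up old red cells, haem oxygenase 1 opens the haem ring and frees its iron, and ferritin stores that iron or ferroportin exports it. Ceruloplasmin, a copper protein made mostly by the liver, oxidises exported iron so that transferrin can bind it. Red cell precursors, which the spleen of young rodents also holds, are among the cells with the most transferrin receptor.

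The labelled tissues carried their markers. The summed intensity of 10 hepatocyte markers ran from 90800 to 103000 in liver and from 282 to 969 in spleen, and that of 5 B cell markers from 12700 to 16600 in spleens of vehicle rats and from 371 to 655 in liver. Liver arrays had 4924 to 6060 blank cells of 30980 probe sets, spleen arrays 1021 to 1920. The array of rat 2003 stood apart in liver: its correlation with the rest averaged 0.847, and no other liver array averaged under 0.906. Of the spleen arrays, 4 (rats 1001, 1003, 1005 and 2005) had at least 1778 blanks and the other 8 at most 1183, so that all vehicle rats without wood fell on one side of this division.

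In spleen, cyclophosphamide lowered the transferrin receptor and raised the exporter, the haem-opening enzyme, ceruloplasmin and biliverdin reductase B. Of the 6 genes, 4 were called higher and 1 lower at an adjusted p under 0.05 (limma, Benjamini-Hochberg over all genes, 6 drug rats against 6 vehicle rats). The drug changed much of the spleen: 55.0% of 13614 tested genes were called, 26.9% higher and 28.1% lower. These shares are the background for the counts below of the drug effect in spleen over both housings. The median log2 change was 0.77 over the 6 genes and −0.02 over all genes tested. In whole organs, a higher or lower share of a cell type and more or less RNA per cell cannot be told apart.

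Tfrc had the largest change of the set. Without wood, its spleen log2 intensity was 12.18, 12.30 and 12.34 in the vehicle rats and 9.47, 9.39 and 9.86 in the drug rats. With wood the values were 11.45, 11.30 and 11.87 in the vehicle rats and 9.27, 9.94 and 9.75 in the drug rats. All 6 drug rats lay below all 6 vehicle rats, and the vehicle rats without wood lay above those with wood. Spleen arrays of the vehicle rats without wood all had many blanks and those of the vehicle rats with wood few. Housing and this division of the arrays therefore cannot be told apart between vehicle rats. The drug effect was −2.29 ± 0.14 (SE, log2), a 4.9-fold fall (adjusted p = 1.5e-06), and 141 of 13614 tested genes had a larger one. Without wood the change was −2.70 ± 0.20 and with wood −1.88 ± 0.20. The difference between these, 0.82 (95% interval 0.18 to 1.46), had an unadjusted p of 0.017 and an adjusted p of 0.267 in limma. It takes in the same vehicle arrays, so the same limit applies to it.

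Slc40a1, which encodes the only known iron exporter of mammalian cells, rose. Its spleen log2 intensity without wood was 11.99, 11.99 and 12.05 in vehicle rats and 12.92, 12.96 and 12.88 in drug rats. In rats with wood the values were 12.14, 11.99 and 12.11 in vehicle rats and 12.84, 12.88 and 12.75 in drug rats. The 2 treatments did not overlap, and the rats of a group lay close together (SD 0.03 to 0.08, log2). The rise was 0.83 ± 0.05 (SE, log2), or 1.77-fold (adjusted p = 1.5e-06), and it was 0.91 ± 0.07 without wood and 0.75 ± 0.07 with wood.

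Cp rose most. Without wood its spleen log2 intensity was 10.71, 10.60 and 10.58 in vehicle rats and 12.14, 12.04 and 11.83 in drug rats. Among rats with wood it was 10.93, 11.11 and 10.94 in vehicle rats and 12.26, 12.07 and 12.15 in drug rats. The treatments were fully apart, and the vehicle rats with wood lay above those without. The drug effect was 1.27 ± 0.07 (SE, log2), or 2.41-fold (adjusted p = 8.19e-07), with 1.38 ± 0.10 in rats without wood and 1.17 ± 0.10 in rats with wood.

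Hmox1, the enzyme that opens the haem ring, and Blvrb both rose. Hmox1 stood at 12.29, 12.29 and 12.21 (log2 intensity) in vehicle rats without wood and at 13.25, 13.34 and 12.98 in drug rats without wood. With wood it stood at 12.37, 11.94 and 12.32 in vehicle rats and at 13.16, 13.13 and 13.17 in drug rats. No vehicle rat reached a drug rat, and the rise was 0.94 ± 0.09 (SE, log2), or 1.91-fold (adjusted p = 1.59e-05). It was 0.93 ± 0.13 without wood and 0.94 ± 0.13 with wood, a difference of 0.01 (95% interval −0.38 to 0.41).

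Blvrb, which reduces flavins and forms of biliverdin other than the main one that haem oxygenase makes, varied more between vehicle rats. It was at 9.99, 10.32 and 10.02 (log2 intensity) in vehicle rats without wood and at 10.57, 10.61 and 10.38 in drug rats without wood. In the rats with wood it was at 9.31, 9.34 and 9.91 in vehicle rats and at 10.45, 10.50 and 10.61 in drug rats. The drug rats of both housings were alike and above all vehicle rats, while the vehicle rats with wood were the lowest. As for Tfrc, housing and the division of the arrays by blanks cannot be told apart between these vehicle rats. The rise was 0.71 ± 0.11 (SE, log2), or 1.63-fold (adjusted p = 5.19e-04). With wood it was 1.0 ± 0.16 (adjusted p = 9.53e-04) and without wood 0.41 ± 0.16 (adjusted p = 0.0618, and 0.0158 to 0.412 over 21 alternatives, of which 6 passed), and the difference between the housings, 0.59 (95% interval 0.07 to 1.10), did not pass (adjusted p = 0.319).

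Slc11a2 did not pass on the probe set used. Its spleen log2 intensity was 8.55, 9.22 and 8.55 in vehicle rats without wood, 8.50, 8.49 and 7.76 in drug rats without wood, 8.19, 8.43 and 8.98 in vehicle rats with wood, and 8.35, 8.39 and 8.40 in drug rats with wood. The treatments overlapped. The estimate was −0.34 ± 0.19 (SE, log2; 95% interval −0.76 to 0.08; adjusted p = 0.152). A mean over both Slc11a2 probe sets gave −0.34 with an adjusted p of 0.043, and a term for the spleen arrays with many blanks gave −0.58 with an adjusted p of 0.0328, while over all 22 alternatives it ran from 0.0328 to 0.311.

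**Figure D1:**
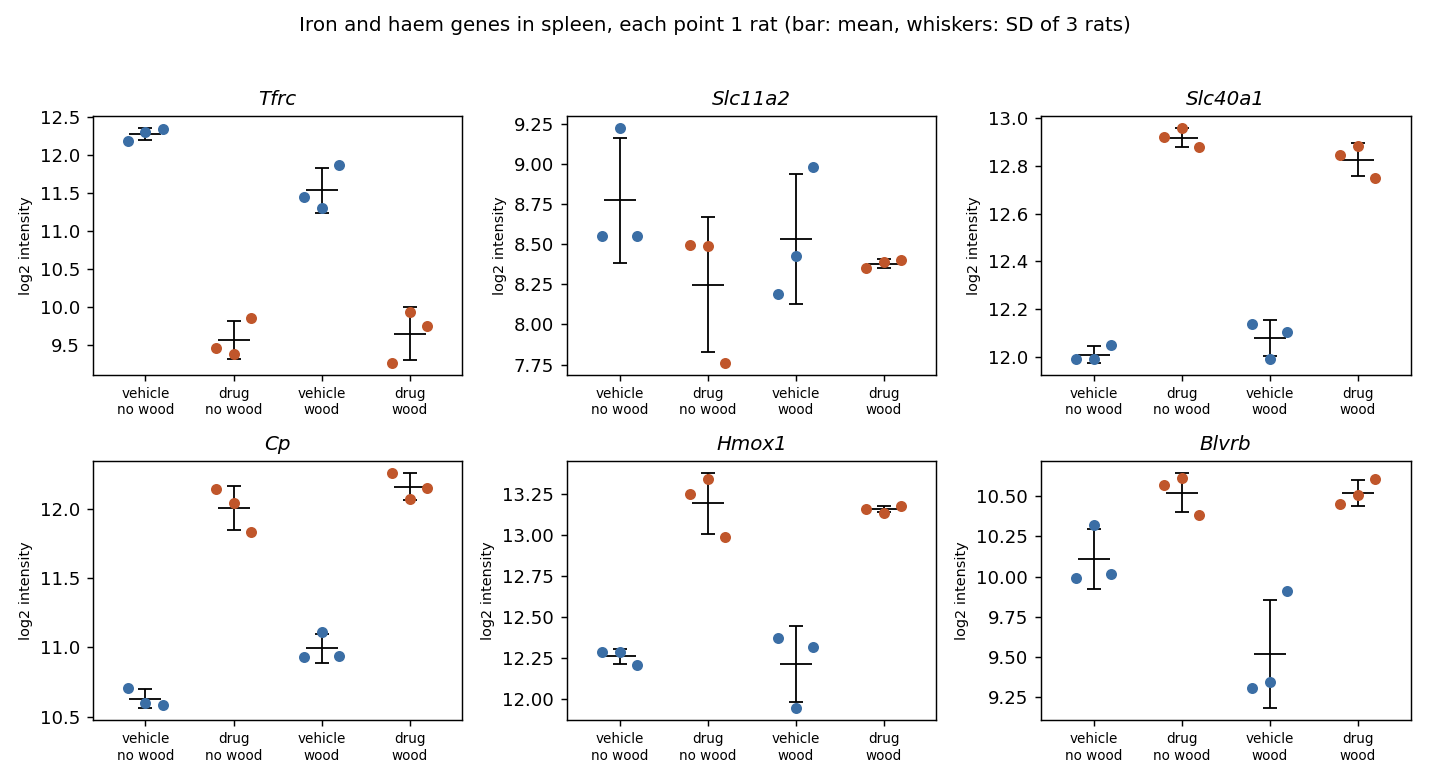
Log2 intensity of the 6 measured iron and haem genes in spleen (vertical axis, a separate scale for each gene) in the 4 groups (horizontal axis), with 1 point per rat, the mean as a bar and the SD of 3 rats as whiskers. The drug rats lie below the vehicle rats for Tfrc (9.27 to 9.94 against 11.30 to 12.34) and above them for Slc40a1, Cp, Hmox1 and Blvrb, while those for Slc11a2 overlap.

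The treatments did not overlap in spleen for 5 of the 6 genes, beside 31.2% of the genes with a value on every spleen array. Within each housing the calls were nearly the same. Without wood, 3 of the 6 genes were called higher and 1 lower, where 45.1% of all genes were called in either direction. With wood, 4 were higher and 1 lower, where 38.4% were called. Rats with wood all had spleen arrays with few blanks, so their values lie within one side of that division. On the other side, rat 2005 against the 3 vehicle rats without wood gave −2.42 for Tfrc, 0.87 for Slc40a1, 1.20 for Cp, 0.72 for Hmox1, 0.28 for Blvrb and −1.01 for Slc11a2 (log2, 1 rat against 3, no test).

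The promoters of these genes are shown because 3 of the genes that rose together and the 1 that fell have an entry in the RefSeq table (GRCr8), in which 6 of the 10 genes were found. Each line gives the 100 bases before the start site, 5′ to 3′ on the gene's strand, and capitals mark any of the motifs named below.
Tfrc (chr11:81690319-81690418, minus strand): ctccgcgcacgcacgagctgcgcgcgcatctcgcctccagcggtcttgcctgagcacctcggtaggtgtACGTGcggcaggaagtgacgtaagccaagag
Slc40a1 (chr9:55543461-55543560, minus strand): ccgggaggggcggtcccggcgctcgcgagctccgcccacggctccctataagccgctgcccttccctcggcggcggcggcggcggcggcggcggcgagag
Cp (chr2:104368570-104368669, plus strand): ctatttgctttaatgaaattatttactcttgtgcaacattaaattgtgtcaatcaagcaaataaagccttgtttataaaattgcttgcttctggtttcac
Blvrb (chr1:91866158-91866257, plus strand): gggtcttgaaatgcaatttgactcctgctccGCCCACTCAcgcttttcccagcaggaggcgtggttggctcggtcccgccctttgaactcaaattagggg
Windows from 250 bases before to 50 after the start were searched on both strands for TGACNNNGC, TGAGNNNGC, ACGTG and CACGTG. The motifs TGACNNNGC and TGAGNNNGC are forms of the antioxidant response element bound by NRF2 and BACH1. The motif ACGTG is a form of the core bound by hypoxia-inducible factors, and no other form of that core was searched. The motif CACGTG is the E-box bound by MYC, and it contains ACGTG. Tfrc held ACGTG, starting 31 bases before its start, and Blvrb held TGAGNNNGC on the opposite strand, 69 bases before its start. Slc40a1, Cp, Slc11a2 and Tf held none of the 4 in these windows. Hmox1, which also rose, had no entry and was not searched. Of 33469 rat promoters of this length, 12.1% held TGACNNNGC, 17.2% TGAGNNNGC, 19.3% ACGTG and 6.42% CACGTG, and a match is a description of letters only.

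In liver, none of the 6 genes passed for the drug (limma, adjusted p under 0.05). There 0.812% of 12683 tested genes were called, 0.166% higher and 0.647% lower. Tfrc and Cp had an unadjusted p under 0.05, so 2 of the 6 did, beside 14.3% of all genes. The median change was −0.03 over the 6 genes and −0.02 over all genes tested.

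Tfrc in liver was at 10.79, 10.83 and 10.05 (log2 intensity) in vehicle rats without wood and 10.36, 10.20 and 10.04 in drug rats without wood. Rats with wood had 10.82, 11.16 and 10.14 (vehicle) and 10.35, 9.70 and 9.64 (drug). One vehicle rat of each housing lay among the drug rats. The estimate was −0.58 ± 0.22 (SE, log2; 95% interval −1.07 to −0.09; adjusted p = 0.279), with −0.36 ± 0.31 without wood and −0.80 ± 0.31 with wood.

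Cp in liver was at 12.94, 12.88 and 12.90 (log2 intensity) in vehicle rats without wood and 13.22, 13.34 and 13.07 in drug rats without wood. The rats with wood had 12.83, 12.99 and 13.01 in vehicle rats and 13.04, 13.17 and 13.03 in drug rats. All 6 drug rats lay above all 6 vehicle rats (the lowest drug rat at 13.03, the highest vehicle rat at 13.01), and such a separation held for 2.89% of the genes with a value on every liver array. The difference was 0.22 ± 0.07 (SE, log2; 95% interval 0.06 to 0.38; adjusted p = 0.215). A mean over the 3 Cp probe sets gave 0.08 (adjusted p = 0.715), and 1 of the 3, 1368419_at, had an estimate of −0.15 ± 0.14.

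For the other 4 genes the liver estimates were −0.17 ± 0.18 for Slc40a1 (95% interval −0.58 to 0.24), 0.18 ± 0.16 for Slc11a2 (−0.18 to 0.53), −0.02 ± 0.09 for Hmox1 (−0.23 to 0.19) and −0.04 ± 0.09 for Blvrb (−0.26 to 0.17). The intervals for Slc40a1, Hmox1 and Blvrb do not reach the size of their changes in spleen. In the separate housings 0 of the 6 passed in liver, where 0.150% of all genes were called without wood and 0.0473% with wood, and 1 of the 6 had an unadjusted p under 0.05 in each (Cp without wood, Tfrc with wood), beside 11.9% of all genes without wood and 8.12% with wood.

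**Figure D2:**
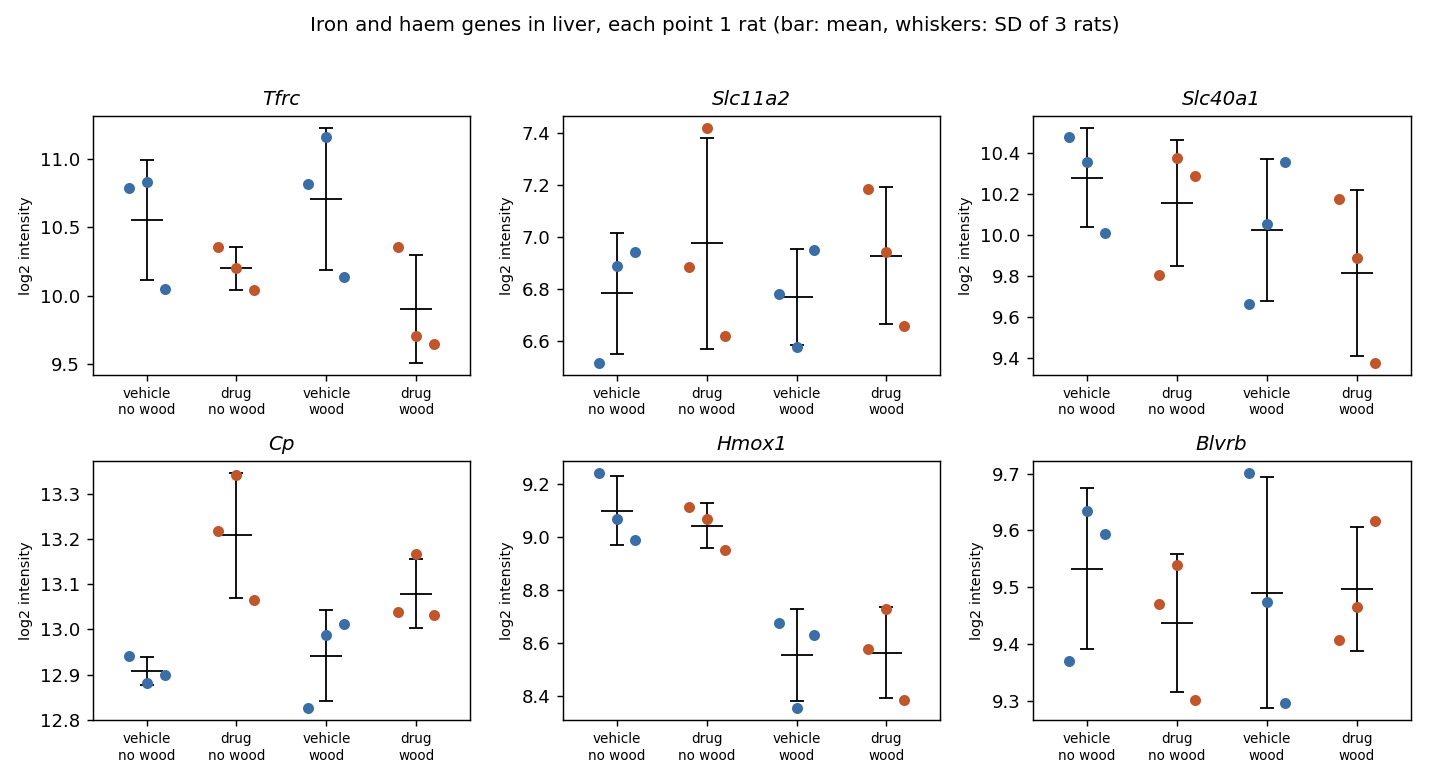
Log2 intensity of the same 6 genes in liver, with the axes, points, bars and whiskers as for spleen. The Cp values of the drug rats (13.03 to 13.34) lie just above those of the vehicle rats (12.83 to 13.01), and Hmox1 is lower in rats with wood (8.35 to 8.73) than without (8.95 to 9.24).

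The drug effect itself differed between the organs for 5 of the 6 genes (limma over 24 arrays, spleen minus liver): 4 were called higher and 1 lower, where 33.1% of 12474 tested genes were called, 18.4% higher and 14.7% lower. The difference was −1.71 ± 0.27 for Tfrc (SE, log2; adjusted p = 9.09e-05), 0.99 ± 0.19 for Slc40a1 (6.42e-04), 1.05 ± 0.10 for Cp (4.18e-07), 0.96 ± 0.13 for Hmox1 (1.75e-05) and 0.75 ± 0.15 for Blvrb (7.89e-04). For Slc11a2 it was −0.52 ± 0.25 (95% interval −1.05 to 0.02; adjusted p = 0.131). Cp in liver lay above the 99th percentile of every liver array (12.25 to 12.32). Slc40a1 and Hmox1 in spleen lay above that of every spleen array (11.84 to 11.93). Whether the top of the scale limits changes at such levels was not tested.

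**Figure D3:**
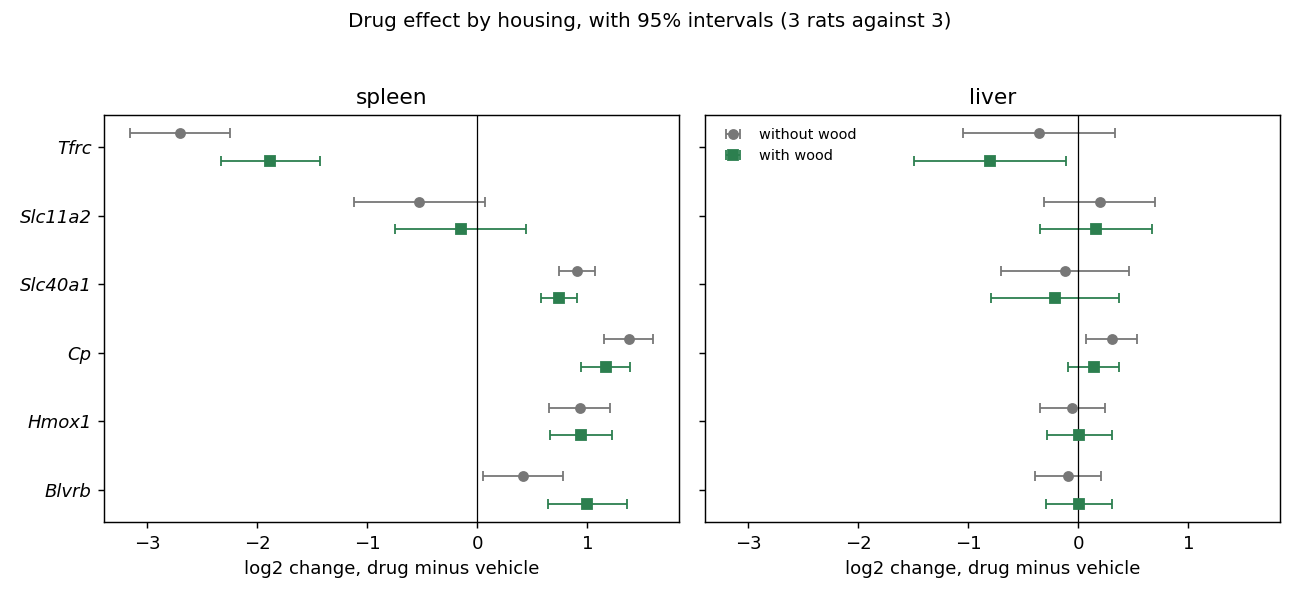
Drug effect as a log2 change (horizontal axis) for each of the 6 genes (vertical axis) in spleen and in liver, without wood (circles) and with wood (squares), with 95% intervals for 3 rats against 3. In spleen the Tfrc estimates are at −2.70 and −1.88 and those of Cp at 1.38 and 1.17, and in liver all estimates lie between −0.80 and 0.30.

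For wood, 1 of the 6 genes passed in spleen and 0 in liver. In spleen, 12.1% of all genes were called for wood, and of the 6 genes Cp passed, with 0.26 ± 0.07 (SE, log2; adjusted p = 0.0448). The difference was seen between vehicle rats (10.58 to 10.71 without wood and 10.93 to 11.11 with wood), all of whose arrays without wood had many blanks, and with a term for those arrays it was 0.09 (adjusted p = 0.893, the highest of 22 alternatives, of which the lowest was 0.0183). Of all genes called for wood in spleen, 50% were higher, against 60.3% after median centring. Tfrc (−0.32 ± 0.14, adjusted p = 0.148) and Blvrb (−0.30 ± 0.11, adjusted p = 0.11) had unadjusted p-values under 0.05, as did 32.5% of all genes. In the interaction of wood and drug, 0 of the 6 genes passed in spleen, where 0.705% of all genes did. At an unadjusted p under 0.05 there were 2 of the 6, beside 13.0% of all genes.

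In liver, 0% of genes were called for wood (781 of 12683 had an unadjusted p under 0.05 in limma). Hmox1 was lower in rats with wood. Without wood it was at 9.24, 9.07 and 8.99 (log2 intensity) in vehicle rats and 9.11, 9.07 and 8.95 in drug rats. With wood it was at 8.68, 8.35 and 8.63 in vehicle rats and 8.58, 8.73 and 8.38 in drug rats. The 6 rats with wood did not overlap the 6 without, as in 0.417% of genes with a value on every liver array. The difference was −0.51 ± 0.09 (SE, log2; unadjusted p = 2.97e-04), and it did not pass after adjustment (0.269, and 0.1 to 0.499 over 21 alternatives). In the interaction in liver 0% of genes were called (650 had an unadjusted p under 0.05), and of the 6 genes 0 passed and 0 had an unadjusted p under 0.05.

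In vehicle rats the organs differed for all 6 genes on the scale as deposited (5 higher in spleen, 1 lower), where 79.5% of tested genes were called, 59.2% higher in spleen and 20.2% lower. These shares depend on the scaling: the median gene was higher in spleen by 0.72 (log2) as deposited and by 0.36 after median centring, where 63% of the calls were higher against 74.5%. Hmox1 was higher in spleen by 3.41 ± 0.09 (SE, log2), or 10.6-fold, Slc40a1 by 1.89 ± 0.14, Slc11a2 by 1.88 ± 0.18 and Tfrc by 1.28 ± 0.19. Cp was lower in spleen, by −2.11 ± 0.07. These 5 kept direction and call under each scaling tried, whereas Blvrb, at 0.30 ± 0.11 (adjusted p = 0.0137), was at −0.06 after median centring (adjusted p = 0.636, and 0.00308 to 0.679 over 23 alternatives). Across all 8 groups, the highest mean was in spleens of drug rats without wood for Hmox1 (13.19 ± 0.19, SD, n = 3) and Slc40a1 (12.92 ± 0.04). For Tfrc it was in spleens of vehicle rats without wood (12.27 ± 0.08), and the spleens of drug rats (9.57 ± 0.25 and 9.66 ± 0.35) were lower than liver of vehicle rats (10.56 ± 0.44 and 10.71 ± 0.52). On the probe set used, Cp in spleens of drug rats (12.01 ± 0.16 and 12.16 ± 0.10) stayed below every liver group (12.91 to 13.21). The same held on 1368420_at (11.33 in both spleen groups against 13.02 to 13.26). On 1368419_at the order was reversed, with spleens of drug rats at 11.67 and 11.78 and liver groups at 9.10 to 9.38.

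Other probe sets of the same genes were read in a fit of every probe set, in which 46.7% were called for the drug in spleen. The 2 probe sets of Tfrc fell by −2.29 and −2.48, the 3 of Slc40a1 rose by 0.83, 0.91 and 0.91, and the 3 of Cp rose by 1.27, 1.20 and 1.44 (log2, spleen). The second Slc11a2 probe set (1367877_at) was at 8.25, 8.02 and 7.97 in vehicle rats without wood, 7.42, 7.45 and 7.40 in drug rats without wood, 7.57, 7.18 and 7.91 in vehicle rats with wood and 7.51, 7.56 and 7.47 in drug rats with wood. It was low in the drug rats without wood and mixed in rats with wood, with a drug effect of −0.35 ± 0.11 (SE; adjusted p = 0.0307). Probe sets differed more in the comparison of organs. For Cp, 1368418_a_at and 1368420_at were lower in spleen than in liver of vehicle rats (−2.11 and −3.14), while 1368419_at was higher (1.25 ± 0.11, adjusted p = 8.04e-09). For Slc11a2, 1388059_a_at was higher in spleen by 1.88 and 1367877_at by 0.29 (adjusted p = 0.0897). Which transcript form each of them reads was not determined.

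The ferritin chains and transferrin were read only by shared probe sets, so these values belong to no single gene. The probe set of Fth1 and a pseudogene entry was at 13.18 to 13.22 (log2 intensity) in spleens of vehicle rats without wood, 13.13 to 13.55 in drug rats without wood, 13.36 to 13.44 in vehicle rats with wood and 13.29 to 13.43 in drug rats with wood. Among the drug rats without wood, rat 2005 was at 13.13, and rats 2001 and 2003 were at 13.46 and 13.55. Rat 2005 and the vehicle rats without wood, whose arrays had many blanks, lay below every other rat. The drug effect on this probe set in spleen was 0.08 ± 0.08 (SE; adjusted p = 0.457). With wood, where all spleen arrays had few blanks, it was −0.03 ± 0.11. The part of the blanks in the estimate over both housings was not tested for this probe set. The probe set of Ftl1 and 4 related entries lay between 13.09 and 13.39 in all spleens, with a drug effect of 0.11 ± 0.07 (adjusted p = 0.218). Both lay above the 99th percentile of every array (11.84 to 12.32). The 2 probe sets of Srprb and Tf went different ways in spleen: 1370228_at rose by 1.49 ± 0.18 (adjusted p = 1.23e-04), from 9.17 to 10.82 in vehicle rats to 11.18 to 11.64 in drug rats, while 1391323_at, at 4.43 to 5.88, changed by −0.22 ± 0.21 (adjusted p = 0.415). In liver none of the 4 shared probe sets passed for the drug, and the estimates ran from −0.12 to 0.02.

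**Figure D4:**
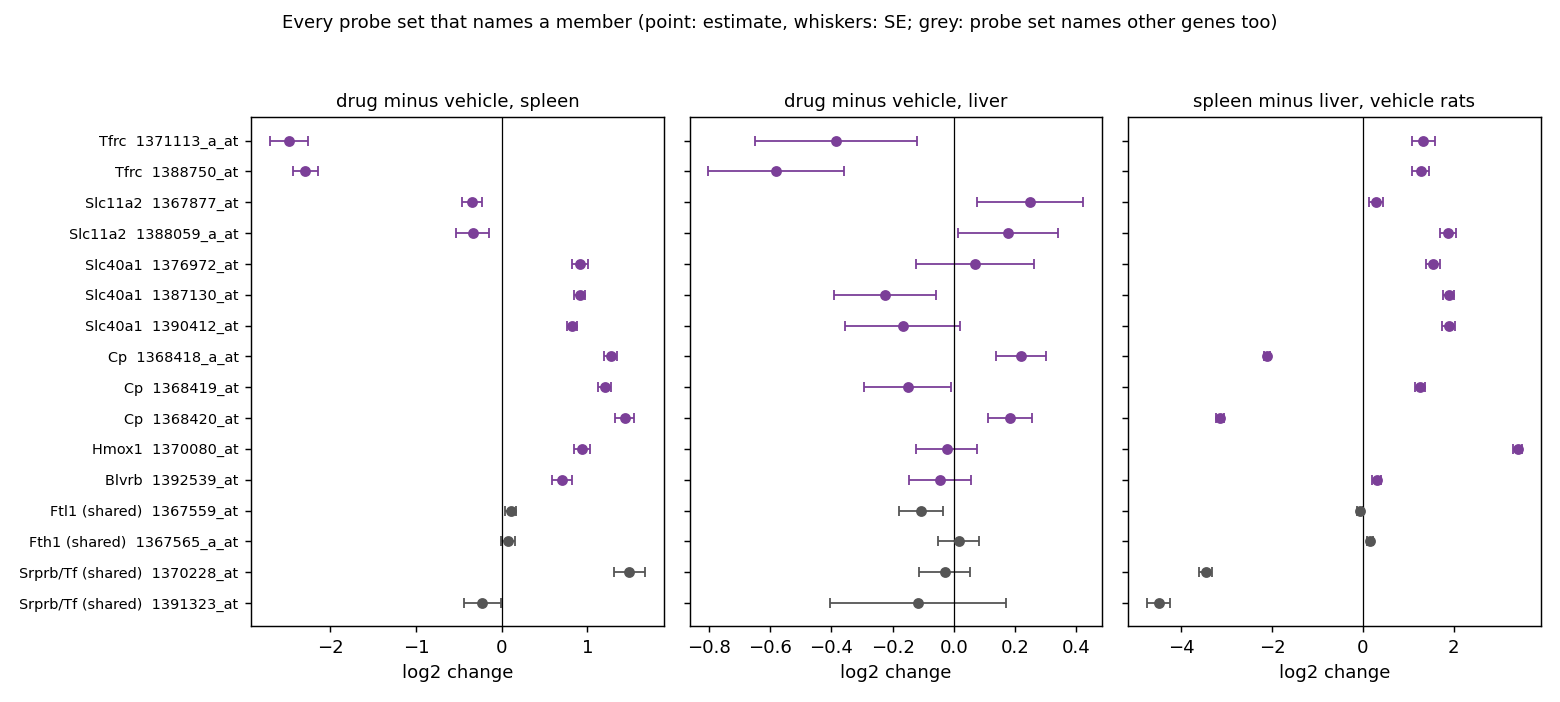
Log2 change with its SE (horizontal axes, each with its own scale) for every probe set that names a gene of the set (vertical axis), for the drug in spleen, the drug in liver and spleen minus liver in vehicle rats, with shared probe sets in grey. Probe sets of one gene lie close together for the drug in spleen except the pair of Srprb and Tf (1.49 and −0.22), and the Cp probe sets fall on both sides of 0 between organs (−3.14, −2.11 and 1.25).

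The rest of the iron and haem pathway was read from 7 lists, beside the spleen background of 26.9% of genes higher and 28.1% lower. Of 9 genes of iron uptake and reduction, 6 rose and 3 fell in spleen (median 0.42). The reductase Cybrd1 rose by 1.30 ± 0.09 (SE, log2) and the metalloreductases Steap4 and Steap2 by 1.15 ± 0.15 and 1.14 ± 0.21. The second transferrin receptor, Tfr2, was lower in every drug rat (0.77 to 3.93, log2 intensity) than in any vehicle rat (5.13 to 7.52), and since the drug rats lay near the floor of the scale its estimate of −3.39 ± 0.46 shows a fall and not its size. Steap3, the endosomal iron reductase of red cell precursors, fell by 0.87 ± 0.18, and Meltf fell by 0.56 ± 0.11 as the mean of both housings. Meltf fell without wood, from 6.60 to 7.18 (log2 intensity) in vehicle rats to 5.59 to 5.87 in drug rats. With wood the vehicle rats (5.57 to 5.67) and drug rats (5.48 to 5.76) overlapped. The vehicle rats without wood all had arrays with many blanks, so housing and this division cannot be told apart between vehicle rats.

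Of 10 genes of iron sensing and ferritin turnover, 4 rose and 3 fell (median 0.15). Aco1, the cytosolic aconitase that doubles as an iron regulatory protein, rose by 1.34 ± 0.06, and Rnf217 rose by 0.42 ± 0.13. Fbxl5, the iron-binding subunit that sends iron regulatory proteins to degradation, fell by 0.52 ± 0.06, and the iron chaperones Pcbp2 (−0.36 ± 0.05) and Pcbp1 (−0.16 ± 0.05) fell. Hfe had an estimate of 3.71 ± 0.86, but this rests on vehicle rats without wood at −2.39, 1.42 and 3.91 (log2 intensity), near the floor of the scale. The arrays of these rats all had many blanks. Rat 2005, whose array also had many blanks, was at 6.64, below the other drug rats without wood (8.07 and 8.16). With wood, the vehicle rats lay between 6.99 and 7.31 and the drug rats between 7.75 and 8.11.

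Among genes of haem uptake and breakdown more rose than fell in spleen. Of 11 genes of haem and haemoglobin capture and transport, 6 rose and 1 fell (median 0.53). The haem transporter of the phagolysosome, Slc48a1, rose by 1.53 ± 0.09, Cd163, the scavenger receptor for haemoglobin bound to haptoglobin, by 1.18 ± 0.12, and Flvcr2 by 1.10 ± 0.14, whereas haptoglobin itself (Hp) fell by 1.23 ± 0.24. Of 6 genes of haem breakdown and bilirubin handling, 4 rose and 0 fell (median 0.61), among them the transporter Abcc3 (1.72 ± 0.15), the other biliverdin reductase, Blvra (1.21 ± 0.09), and Por, the reductase that supplies haem oxygenase with electrons (0.93 ± 0.11). Of 4 genes of iron oxidation and iron binding, 1 rose and 1 fell (median −0.20): Heph, the membrane-bound relative of ceruloplasmin, rose by 1.53 ± 0.11, and Lcn2, a siderophore-binding protein of neutrophils, fell by 1.35 ± 0.47.

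Genes of mitochondrial iron went mostly the other way, with 2 of 11 higher and 7 lower (median −0.38). Slc25a37, the mitochondrial iron importer of red cell precursors, fell by 3.05 ± 0.17, Glrx5, needed for iron-sulphur cluster assembly, fell by 1.87 ± 0.11, and Abcb10 fell by 1.79 ± 0.19. The 2 that rose were Fdx1 (0.37 ± 0.07) and Nfs1 (0.20 ± 0.08). Of 12 transcriptional regulators, 7 rose and 4 fell (median 0.54). Spic, the factor that defines red pulp macrophages, rose by 1.39 ± 0.08, Mitf by 1.07 ± 0.20 and Nr1h3 by 1.04 ± 0.08. Mitf rose mostly with wood, from 4.95 to 5.55 (log2 intensity) in vehicle rats to 6.47 to 7.29 in drug rats. Without wood it was at 6.44 to 6.78 in vehicle rats and at 6.79, 6.85 and 7.66 (rat 2005) in drug rats. The arrays of rat 2005 and of the vehicle rats without wood had many blanks. Myc fell by 1.07 ± 0.13, Tfeb fell by 0.46 ± 0.08 and Mafk fell by 0.44 ± 0.08. In liver, 0 genes of all 7 lists passed for the drug (limma). Slc39a14, a transporter of iron not bound to transferrin, came nearest, with 0.58 ± 0.11 (adjusted p = 0.0501), followed in its list by Meltf (−0.56 ± 0.16, adjusted p = 0.17). For wood in spleen, 3 of 63 tested genes of the 7 lists were called higher and 9 lower, beside 12.1% of all genes in either direction, and in liver 0 genes of the 7 lists passed for wood.

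**Figure D5:**
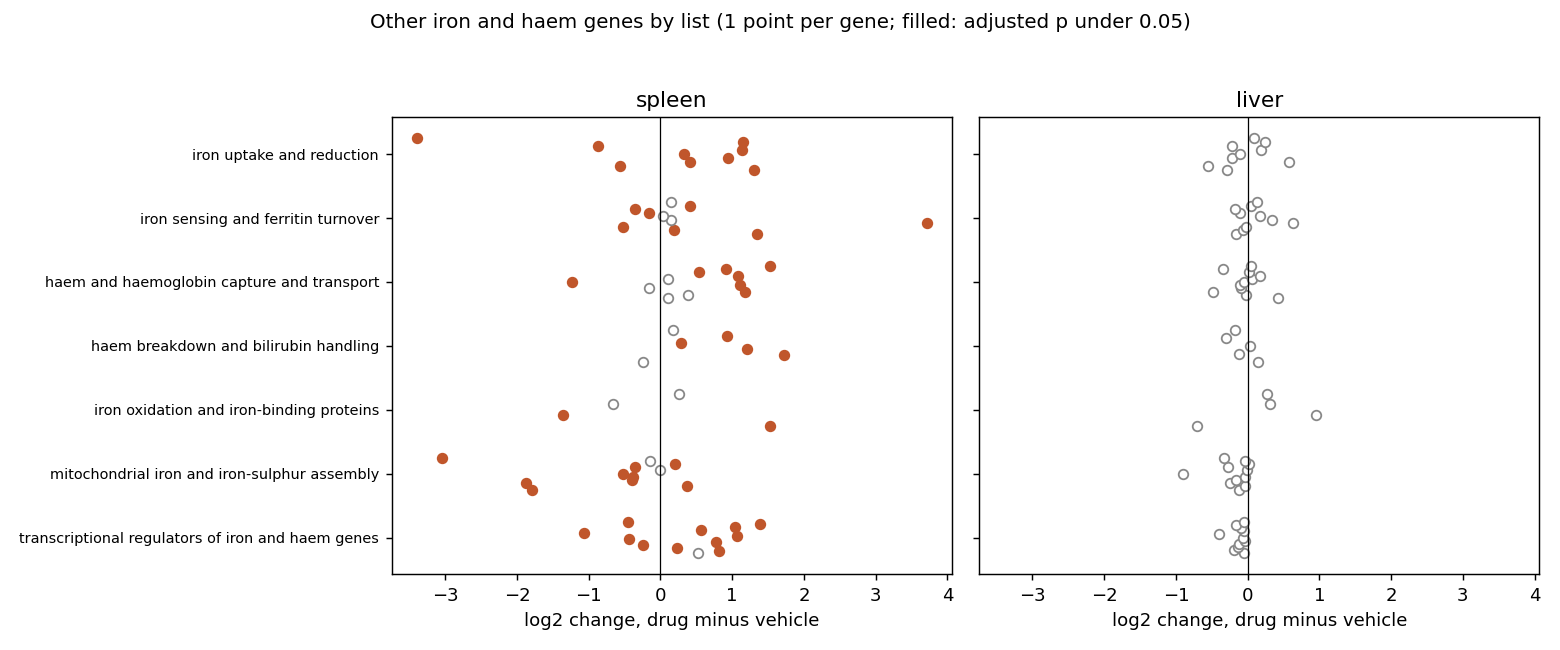
Drug effect as a log2 change (horizontal axis) in spleen and liver for the genes of 7 iron and haem lists (vertical axis), 1 point per gene, filled where the adjusted p was under 0.05. In spleen the points spread from −3.39 (Tfr2, resting on drug values near the floor) to 3.71 (Hfe, resting on vehicle values near the floor), and in liver no point is filled.

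Markers of other cells moved with these genes in spleen. Of 14 tested red cell precursor markers, 12 fell (median −4.36), led by Ahsp (−6.71), Alas2 (−6.65) and Hemgn (−5.89). The summed intensity of the 15 on the array went from 11700 to 28500 in vehicle rats down to 811 to 1320 in drug rats, and 1 of the 15 was blank in all 3 rats of each drug group. Of 13 tissue macrophage markers, 12 rose (median 0.86), led by Mertk (1.52), Spic (1.39) and Mrc1 (1.20), and their sum went from 29800 to 37800 up to 56200 to 64500. All 8 markers of dividing cells and all 5 of B cells fell, 5 of 6 neutrophil markers fell and 1 rose, 6 of 7 stromal markers rose, 5 of 6 endothelial markers rose and 1 fell, and 2 of 8 T cell markers rose and 2 fell. For the pancreas, which lies against the spleen, 1 of 6 tested markers rose, and the sum over all 7 reached 14700 in a drug rat against 920 at most in vehicle rats. In liver, where 0.647% of all tested genes were called lower, 1 of 12 tested red cell precursor markers fell. The sum over all 15 went from 969 to 1320 down to 486 to 790. Of the macrophage markers in liver, 5 of 13 fell, the sum going from 8610 to 10800 down to 4670 to 7460. The part of these cell types in the changes of the iron genes was not tested.

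The genes nearest to each changed member over the 8 group means, each centred within its organ, were found among 10530 genes with a value on every array, by the root mean square difference. For Tfrc they were Tec (0.13, log2) and Rbm38 (0.152), for Slc40a1 Gpx3 (0.0319) and Gstm2 (0.0651), and for Cp Pkd2 (0.0652) and Cd302 (0.0669). For Hmox1 they were Sspn (0.0795) and Bmp6 (0.0952), and for Blvrb Lrrc71 (0.0478) and App (0.0523). Gpx3, for example, had a drug effect of 0.81 in spleen, beside 0.83 for Slc40a1. This closeness follows from the choice by the same group means and is no separate result. The nearest genes of Tfrc lay farther from it than those of the other members from theirs. This distance is not scaled to the size of a gene's change, and Tfrc had the largest change of the set.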

How the data were processed

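Per the labels, RNA of each organ was hybridised to a rat Affymetrix expression array from 5 µg of input. The authors deposited log10 intensities. The base was inferred: with the outer 1% at each end left out, the values cover a 2143-fold range as log10 and a 10.1-fold range as log2. The summary method and the scaling between arrays are not given in the sources used here. They were turned into log2 values with no further scaling, and blank cells (77831 of 743520) were left missing, so low genes are measured on fewer arrays.

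Of 30980 probe sets, 20792 named 1 gene, 436 several and 9752 none. The probe set of a gene was that with the highest mean log2(intensity + 16), blanks as 0, and a gene was tested where each group had a value. Each organ was fitted by 4 group means over 12 arrays, and the difference between organs by 8 over 24 (R 4.3.3, limma 3.58.1 with statmod 1.5.0, Benjamini-Hochberg within a contrast, threshold 0.05). The 2 housings weigh equally in a drug effect. The number of arrays limits the precision.

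The members and lists were chosen with earlier results of these data known, so they are no independent support. Named genes of a list were up to 3 per direction by size. Liver and spleen of a rat share its number: over 10530 genes the correlation of their deviations from group means ran from −0.0584 to 0.17 and was highest for the own rat in 11 of 12. Alternatives were median centring, quantile normalisation, an offset of 16, genes at or above the median level, at least 2 values per group, the mean of all probe sets, trend and robust eBayes, array weights, a term for spleen arrays with over 1500 blanks, leaving out each rat, the animal as a block and, chosen after seeing the data, all probe sets one by one and rat 2005 against vehicle.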

Additional observations from a re-analysis of the deposited data

Results flagged for a closer look

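For 5 genes the drug effect differed between the organs by a test of the difference itself (spleen minus liver, limma). It was −1.71 for Tfrc (log2), 0.99 for Slc40a1, 0.96 for Hmox1, 1.05 for Cp and 0.75 for Blvrb. Under the 23 alternatives run for each, all 5 differences kept their direction and an adjusted p under 0.05. The ranges were −2.17 to −1.49 for Tfrc, 0.90 to 1.10 for Slc40a1, 0.86 to 1.02 for Hmox1, 0.97 to 1.22 for Cp and 0.65 to 0.90 for Blvrb.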

How the results depend on the processing

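In spleen the drug effects of Tfrc, Slc40a1, Hmox1, Cp and Blvrb kept direction and call under all 22 alternatives run for each. The count of genes called for the drug in liver, 103, was 177 with an offset of 16, 197 among genes at or above the median level, 206 with trend and robust eBayes, 155 with array weights, and 35 to 114 when 1 rat was left out (lowest without rat 1001; it moved by over 1.5 times without any vehicle rat, 4003 or 4005). Without wood it was 19 there, 63 among genes at or above the median level, and 11 to 32 when 1 rat was left out (lowest without rat 2003, highest without 4005, and moved by over 1.5 times also without 1005 or 2005). With wood it was 6, and 16 among those genes. In spleen the count, 7485, was 4801 among genes at or above the median level and 13543 when all probe sets were tested. In rats without wood, a term for arrays with many blanks gave 3666 genes against 6140 in spleen, and for wood 40 against 1647. Leaving out 1 rat moved the spleen counts to between 654 and 1946 for wood, and for the interaction (96) to between 45 and 1013, the highest without rat 2005. The call of Cp for wood in spleen was lost (0 of 6 genes) with the mean of all probe sets, the term for blanks, all probe sets, and without any 1 of the rats but 2001 (0.22 to 0.29 over all 12).

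Some small liver estimates changed sign when 1 rat was left out: Hmox1 ran from −0.0727 to 0.0220 and Blvrb from −0.0936 to 0.0080. Slc11a2 with wood in spleen ran from −0.324 to 0.0707, the highest without rat 3005. Blvrb between organs was −0.0583 after median centring, and it was no longer called after quantile normalisation or without rat 3005. With the animal as a replicate block (within-animal correlation 0.0724), 5 of the 6 genes still differed between organs in their drug effect and 6 in level. Of 910 alternatives of member values printed one by one, 875 gave the same direction and call.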
